A study of Mus musculus with 8 samples.

Results

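The response of macrophages to interferon-gamma (IFN-gamma) was followed in cells that lack the vitamin D receptor. The members are 4 of the 8 arrays of the series, all from Vdr-/- mice, and they were chosen by genotype label: 2 arrays with IFN-gamma were set against 2 arrays without it, each pair matched for calcitriol (1alpha,25(OH)2D3), the active form of vitamin D. The 4 treatments were none, IFN-gamma, calcitriol and both together, with 1 array and no replicate each. The other 4 arrays carry the same treatments in wild-type cells and are used here for the spread of the test and for comparison. The label of the untreated knockout array gives the allele as Vdr tm1 Rge, and the labels name no tissue or cell type to which the knockout is limited. All groups are bone marrow derived macrophages, raised over 7 days in medium with 50 ng/ml of M-CSF. The labels also describe peritoneal cells elicited with thioglycolate, but the source field of each array names bone marrow derived cells. The labels of the treated arrays give 24 to 48 hours of treatment and those of the untreated arrays give no time. The sources used here state no dose, no age of the mice and no number of mice or cultures per array.

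IFN-gamma is the T cell and NK cell cytokine of classical macrophage activation. It binds a receptor of the Ifngr1 and Ifngr2 chains, and the kinases Jak1 and Jak2 pass the signal on to the nucleus, where the promoters of early genes carry GAS elements. Several of these encode interferon regulatory factors such as Irf1, which bind ISRE elements and drive a later wave of genes for antigen presentation, chemokines and interferon-inducible GTPases. The vitamin D receptor is a nuclear receptor that pairs with a retinoid X receptor, and with calcitriol bound it can damp macrophage activation. Vdr-/- cells therefore show how IFN-gamma acts where calcitriol cannot signal through this receptor.

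The values are linear signals of probe sets, short groups of probes for 1 transcript, without detection calls. Values below 15.5, the 25th percentile of all signals, were raised to this floor before log2 was taken. A probe set was tested where its highest signal over the 8 arrays reached 59.1, the median of all signals, and 18058 of 22626 did. They name 10437 genes, each represented here by its brightest probe set. Median signals of the Vdr-/- arrays were 53.4 to 65.0, and 14.8% to 16.5% of their tested values were at the floor. Of the 15 measured macrophage markers at most 1 was at the floor on any of these arrays, and their summed signal was 91713 to 100400. At the floor were 1 to 5 of 10 stromal, 3 to 4 of 10 neutrophil and granulocyte precursor, 3 to 4 of 7 dendritic cell, 3 to 7 of 10 lymphocyte and NK cell and 1 to 4 of 8 erythroid, megakaryocyte and mast cell markers. The summed signals of these lists, which cannot be set against each other because probe sets differ in brightness, were 282.9 to 1112.7 for 10 stromal markers, 682.5 to 977.1 for 10 neutrophil and granulocyte precursor markers, 726.3 to 1111.8 for 7 dendritic cell markers, 140.5 to 375.4 for 10 lymphocyte and NK cell markers and 273.8 to 725.8 for 8 erythroid, megakaryocyte and mast cell markers.

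The targeted gene went against the label of 1 of these arrays. Vdr read 90.3 and 63.2 with its 2 probe sets on the array labelled Vdr-/- untreated, and 6.7 and 5.3 on the array labelled wild-type untreated. On the other 3 Vdr-/- arrays both probe sets read 2.5 to 45.6, and on the treated wild-type arrays 51.5 to 385.9. The sources used here do not place these probes relative to the deleted part, so whether they test the genotype is unknown. The array labelled Vdr-/- untreated also had the highest ratio of 3' to 5' Gapdh control signal among the 4, at 4.82. The ratio was 3.06 with IFN-gamma, 0.853 with calcitriol and 1.07 with both. A high ratio marks RNA truncated towards its 3' end. For the transferrin receptor control the array with IFN-gamma was the highest, at 20.9, against 3.84 untreated, 3.48 with calcitriol and 1.51 with both. The actin ratio of the array with IFN-gamma was 1.53. The transferrin receptor gene Tfrc was itself low on it, with 60.9 against 472.7 untreated, and the part of this in the ratio was not tested. The log2 signals of the array labelled Vdr-/- untreated correlated with those of the other 7 arrays at r of 0.77 to 0.809. Calcitriol and IFN-gamma plus calcitriol in Vdr-/- cells gave 0.877 (across 18058 probe sets, which are not independent). The array labelled wild-type untreated gave 0.881 with Vdr-/- calcitriol and 0.765 with wild-type calcitriol, an array at 0.741 to 0.781 with all others. Whether the untreated labels were exchanged was not tested. The pair with calcitriol does not use the array labelled Vdr-/- untreated, so many of the results below are given as the signals of all 4 arrays or the changes of both pairs.

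With IFN-gamma, Vdr-/- macrophages raised interferon-inducible GTPases, MHC class II genes, the immunoproteasome and the chemokine genes Cxcl9 and Cxcl10, and they lowered Mmp12, Cd5l, Ccl9 and several genes of lipid and iron handling. Limma called 214 probe sets at a Benjamini-Hochberg adjusted p of 0.05, 153 higher and 61 lower, and 1361 had an unadjusted p under that value. For named genes the counts were 105 higher and 48 lower, or 1.01% and 0.46% of the 10437 tested. The effect came from the 4 Vdr-/- arrays. The spread came from how far the IFN-gamma change differed between the calcitriol arms of both genotypes (2 residual degrees of freedom). Limma drew this spread towards the typical spread of probe sets of similar signal, which weighed 20.99 prior degrees of freedom. The p-values thus rest largely on that typical disagreement between arms, and they do not measure variation between cultures. Ccl5, for instance, was called although its arms gave 4.08 and 0.68 log2 (SE 0.47). In these bulk samples fewer cells of a kind and less RNA per cell cannot be told apart.

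With no calcitriol block and without the array labelled Vdr-/- untreated, limma called 21 probe sets higher and 2 lower, all 23 of them among the 214. In the pair with calcitriol alone, the median log2 change was 5.70 for the guanylate-binding protein list, 2.93 for the immunity-related GTPase list, 2.58 for the MHC class II list and -0.75 for the sterol and lipid list. Genes called in both fits included Cxcl9, Iigp1, 5 guanylate-binding protein genes, Acod1, Irf1, Mmp12 and Cd5l.

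The interferon-inducible GTPases, which gather on vacuoles that hold microbes and break them, had the highest medians of the 24 lists described. All 6 measured guanylate-binding protein genes and all 5 measured immunity-related GTPase genes were called higher, with median log2 changes of 6.15 and 4.00 beside -0.05 over all named genes. Gbp2b read 7.8 untreated and 5.2 with calcitriol, against 3909.5 with IFN-gamma and 4285.5 with both. It was at the floor on both arrays without IFN-gamma, so the rise was at least 264-fold (log2 change 8.04, SE 0.44, limma adjusted p = 1.48e-11). Iigp1, which loads onto parasite vacuoles, read 83.7 and 53.1 without IFN-gamma and 7846.4 and 7294.4 with it. That was a rise of 6.83 log2 (SE 0.34, limma adjusted p = 3.11e-12), or 113-fold, and the 2 calcitriol arms gave 6.55 and 7.10.

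Gbp2 rose from 35.3 to 3775.6 without calcitriol and from 90.6 to 5027.9 with it, by 6.27 log2 on average. Gbp8 rose by 6.55 log2, Gbp6 by 6.04, Gbp7 by 4.11 and Gbp3 by 3.49, and for each of them the lower array with IFN-gamma was above the higher array without it. Over all 10437 named genes, 16.4% had both arrays with IFN-gamma above both without and 19.8% had them below, so a lack of overlap alone says little. Among the immunity-related GTPases, Ifi47 rose by 4.52 log2, Irgm1 by 4.00, Igtp by 2.99 and Irgm2 by 2.63. The regulatory GTPase gene Irgm1 differed most between the arms, with 33.3 untreated and 1299.8 with IFN-gamma, but 191.0 with calcitriol and 1248.5 with both. Its 2 induced signals were alike, and the arms differed in the level without IFN-gamma.

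**Figure D1:**
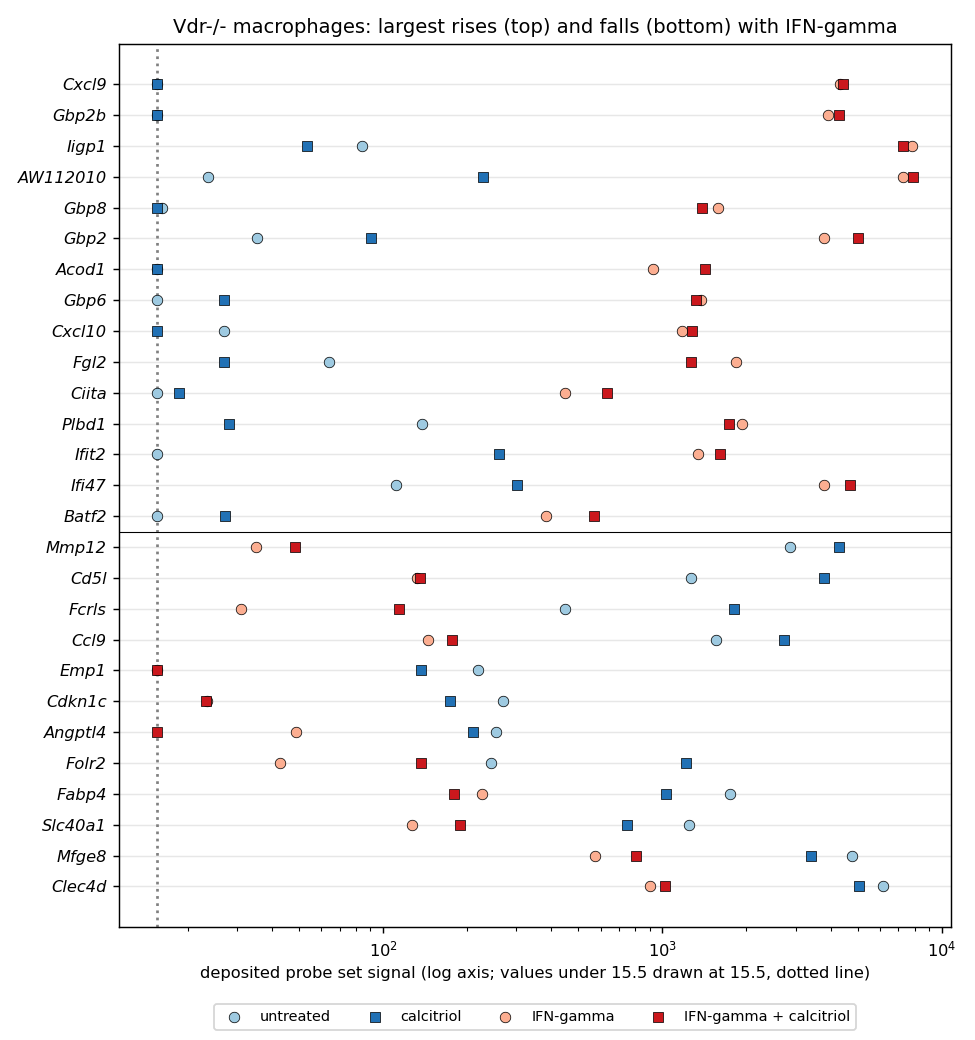
Deposited probe set signal (log axis, arbitrary linear units) on the 4 Vdr-/- arrays for the 15 genes with the largest rises (above the line) and the 12 with the largest falls (below it) among called genes; circles are arrays without calcitriol, squares arrays with it, and signals under the floor of 15.5 are drawn on the dotted line. For each gene the arrays with and without IFN-gamma do not overlap; Cxcl9, Gbp2b and Acod1 are at the floor on both arrays without IFN-gamma, and Emp1 on both arrays with it.

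Among the genes of the signal itself, Irf1, Irf8, Stat3 and the feedback inhibitor gene Socs1 rose, and the receptor chains were not called. Irf1, an early transcription factor of the response, read 328.6 untreated and 3710.8 with IFN-gamma, then 428.7 with calcitriol and 4093.0 with both. The rise was 3.38 log2 (SE 0.31, limma adjusted p = 1.37e-07), with 3.50 and 3.26 in the 2 arms. Irf8, a myeloid lineage factor, rose by 1.31 log2, so that 2 of 7 measured interferon regulatory factor genes were called higher.

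Of 13 measured genes of the receptor and JAK-STAT list 2 were called, both higher, with a list median of 0.65 log2. Socs1, the inhibitor that shuts off the receptor's kinases, rose from 65.4 to 513.4 without calcitriol and from 6.9 to 437.9 with it (log2 change 3.90, SE 0.66, limma adjusted p = 0.000991). Stat3 rose by 2.09 log2 with its brightest probe set, while another probe set of the gene gave -0.61. The log2 change was 2.15 for Stat2 (adjusted p = 0.0825), 2.77 for Socs3 (0.0715), -0.35 for Ifngr1 and 0.46 for Ifngr2.

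The promoters of the called genes were searched for the letters these factors are known to recognise. In the 250 bases before the start, the GAS motif TTCNNNGAA was in 18.3% of 82 called-higher genes with a promoter in the RefSeq table, beside 7.18% of all 27025 promoters and 5.91% of the 8411 tested genes. The ISRE core (GAAA, any 2 bases, then GAAA again) was in 20.7%, beside 3.04% and 2.85%. Either motif was in 34.1% of the genes that rose, in 5.0% of 40 genes that fell and in 9.83% of all promoters. These are shares of letter matches on either strand, given as a description. The 7 windows below were chosen for their matches after these were seen, to show how the motifs lie in genes of the same response; each is the 120 bases before the start in GRCm38.p6, from RefSeq, 5′ to 3′ on the gene's strand, with the matches in capitals.
Irf1: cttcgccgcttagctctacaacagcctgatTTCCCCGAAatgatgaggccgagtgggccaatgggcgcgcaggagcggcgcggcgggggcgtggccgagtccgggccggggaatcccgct
Socs1: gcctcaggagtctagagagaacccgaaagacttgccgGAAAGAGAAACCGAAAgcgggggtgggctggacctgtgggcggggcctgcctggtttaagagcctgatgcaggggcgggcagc
Gbp2: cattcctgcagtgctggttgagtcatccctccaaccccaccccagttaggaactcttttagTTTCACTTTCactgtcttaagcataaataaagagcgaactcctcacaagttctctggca
Gbp3: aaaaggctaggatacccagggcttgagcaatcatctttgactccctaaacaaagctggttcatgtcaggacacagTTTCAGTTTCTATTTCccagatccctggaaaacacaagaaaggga
Gbp7: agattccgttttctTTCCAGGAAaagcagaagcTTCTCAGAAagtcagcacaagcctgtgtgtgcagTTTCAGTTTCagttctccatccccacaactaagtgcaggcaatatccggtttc
Igtp: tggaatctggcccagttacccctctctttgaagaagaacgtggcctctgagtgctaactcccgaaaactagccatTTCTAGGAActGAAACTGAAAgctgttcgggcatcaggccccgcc
Irgm1: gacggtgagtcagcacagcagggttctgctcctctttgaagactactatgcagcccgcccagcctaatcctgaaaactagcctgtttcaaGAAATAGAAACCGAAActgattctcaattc

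The windows lie at chr11:53769894-53770013 (Irf1, plus strand), chr16:10785537-10785656 (Socs1, minus strand), chr3:142620543-142620662 (Gbp2, plus), chr3:142559924-142560043 (Gbp3, plus), chr3:142530216-142530335 (Gbp7, plus), chr11:58199436-58199555 (Igtp, plus) and chr11:48871421-48871540 (Irgm1, minus). Irf1 has a single GAS match that starts 90 bases before the start. Gbp7 has 2 GAS matches and 1 ISRE core match, the latter read on the minus strand, and Igtp has 1 of each, in the last 45 bases. Socs1, Irgm1 and Gbp3 each hold 2 ISRE core matches that overlap, so that 3 GAAA or TTTC blocks follow each other. A match is not a binding site, and binding was not measured.

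MHC class II shows peptides to CD4 T cells. Of 12 measured genes of its presentation list 6 were called higher, the regulator gene and structural genes among them, with a list median of 2.53 log2. Rfxap and Ctss were not called and had lower signals with IFN-gamma in both pairs. Protein and presentation were not measured. Ciita, the master regulator of class II transcription, read 7.2 untreated and 446.2 with IFN-gamma, then 18.6 with calcitriol and 635.1 with both. The rise was 4.97 log2 (SE 0.60, limma adjusted p = 9.64e-06), and 2.98 with the second probe set. With either probe set both arrays with IFN-gamma were above both without it. The brightest was at or just above the floor without IFN-gamma. The second probe set read 90.1 untreated and 4.2 with calcitriol, and its arms gave 1.59 and 4.38 log2.

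The class II chain genes started from a measurable level. H2-Ab1 rose from 383.9 to 10991 without calcitriol and from 766.6 to 9685.8 with it, by 4.25 log2. H2-Eb1 rose by 4.20 log2, H2-DMa, which helps to load peptides, by 3.43, and H2-Aa by 2.70. Cd74, the invariant chain that escorts class II molecules, read 2521.5 and 3773.1 without IFN-gamma and 13362 and 18803 with it, a rise of 2.36 log2 (SE 0.36, limma adjusted p = 0.000299). For these genes too, both arrays with IFN-gamma were above both arrays without it.

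For MHC class I, 3 of 12 measured genes were called, all of them parts of peptide transport and loading: Tap1 rose by 2.46 log2, Tap2 by 2.35 and Tapbp by 2.22. The heavy chain gene H2-K1 had a log2 change of 1.23 (adjusted p = 0.368) and the light chain gene B2m of 0.26 (0.951). Both were bright without IFN-gamma, with 5822.8 and 13184 for H2-K1 and 11758 and 14475 for B2m. Of the immunoproteasome list 4 of 7 were called higher, namely the induced catalytic subunits Psmb8, Psmb9 and Psmb10 by 3.20, 2.57 and 2.48 log2 and the activator subunit Psme1 by 1.79. The pair without calcitriol gave 3.45, 3.46 and 2.45 log2 for Psmb9, Psmb10 and Psme1, and the pair with it 1.69, 1.51 and 1.13. Tapbp likewise had 2.99 and 1.46. Psmb8 showed the split by arm that recurs below, with 126.4 untreated and 2886.1 with IFN-gamma, but 771.0 with calcitriol and 2852.3 with both.

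**Figure D2:**
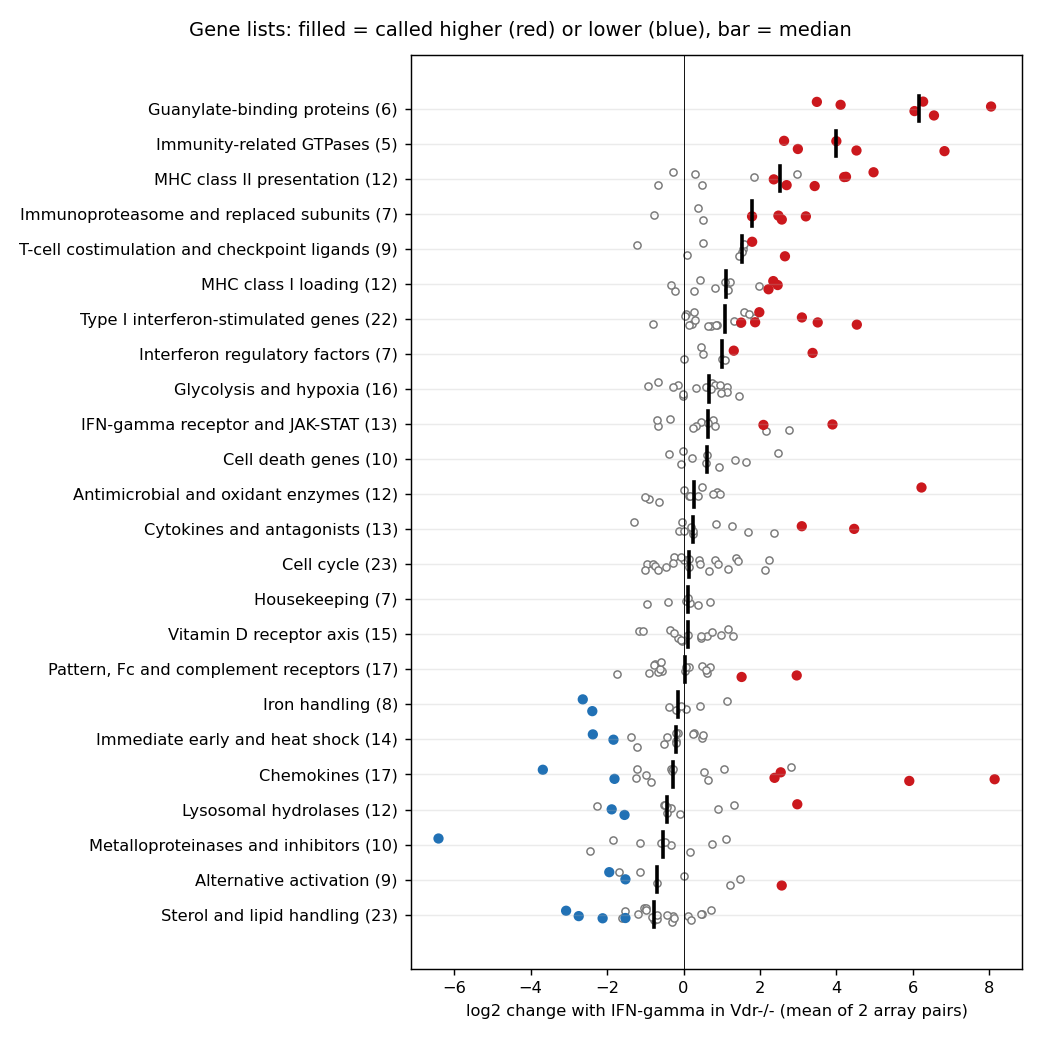
Log2 change with IFN-gamma in Vdr-/- cells (x axis, mean of the 2 array pairs) for each measured gene of 24 lists (rows, number of measured genes in brackets; the vertical scatter within a row has no meaning), with called genes filled and the list median as a bar. The 2 GTPase lists lie wholly to the right with medians of 6.15 and 4.00, and the sterol and lipid list has the lowest median, -0.77.

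Chemokine genes went both ways, with 4 of 17 measured genes called higher, 2 lower and a median of -0.27 log2. Cxcl9, which attracts activated T cells through Cxcr3, read 3.6 untreated and 9.1 with calcitriol, then 4311.3 with IFN-gamma and 4422.6 with both. Both values without IFN-gamma were at the floor, so the rise was at least 282-fold (log2 change 8.14, SE 0.39, limma adjusted p = 3.11e-12). Cxcl10, a ligand of the same receptor, rose by 5.91 log2, Ccl8 by 2.54 and Ccl5 by 2.38.

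The fall of Ccl9 was the largest of the list. Ccl9, a monocyte-attracting chemokine that macrophages make at rest, read 1550.2 and 2714.7 without IFN-gamma and 144.9 and 176.7 with it. It fell by 3.68 log2 (SE 0.33, limma adjusted p = 1.06e-07). Its relative Ccl6 read 1262.2 and 2037.9 against 395.2 and 532.3 and fell by 1.81 log2. In neither gene did the groups overlap.

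Few other effector genes were called. Of 13 measured cytokine and antagonist genes 2 rose, Tnfsf13b (the B cell survival factor BAFF) by 4.46 log2 and Il18bp, which neutralizes IL-18, by 3.09. The classical activation cytokine gene Tnf read 84.2 and 85.6 without IFN-gamma and 218.8 and 189.0 with it (log2 change 1.26, adjusted p = 0.665). Il12b read 54.0 untreated and 45.9 with IFN-gamma, both below the median signal of 59.1. It was under the floor of 15.5 with calcitriol (15) and with both (11.1).

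Of 12 measured antimicrobial and oxidant genes 1 rose. Acod1, which makes itaconate, read 7.5 and 3.0 without IFN-gamma and 928.3 and 1423.0 with it, at least a 74.2-fold rise (log2 change 6.21, SE 0.51, limma adjusted p = 1.78e-08). Nos2, the inducible nitric oxide synthase, was under the floor on both arrays with IFN-gamma (10.0 and 7.2) and read 54.9 untreated and 2.8 with calcitriol (log2 change -0.91, adjusted p = 0.911).

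The other genes among the 15 largest rises lie outside these lists. AW112010, a transcript long annotated as noncoding, read 23.5 untreated, 7293.8 with IFN-gamma, 227.5 with calcitriol and 7900.5 with both, and rose by 6.70 log2. Fgl2, a fibrinogen-like protein gene, rose by 5.20 log2, the phospholipase B-like gene Plbd1 by 4.88 and the transcription factor gene Batf2 by 4.51. Plbd1 was the reverse of AW112010, as its change was 3.81 log2 without calcitriol and 5.95 with it. Where 1 array of a gene was at the floor, as in Batf2, Gbp6 or Ciita, the size of the change depends on that floor.

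At the cell surface, the Fc receptor genes Fcgr4 and Fcgr1 rose by 2.96 and 1.52 log2, the only called genes of 17 pattern, Fc and complement receptors in that list. Cd14, a co-receptor for lipopolysaccharide, read 826.0 untreated, 1036.9 with IFN-gamma, 2271.9 with calcitriol and 835.1 with both, so the arms moved in opposite directions and the groups overlapped (log2 change -0.56, adjusted p = 0.827). Of 9 costimulation and checkpoint genes 2 rose, the checkpoint ligand gene Cd274 by 2.65 log2 and the adhesion gene Icam1 by 1.80. For Cd40 and Cd86 the log2 changes were 1.55 (adjusted p = 0.751) and 1.52 (0.269).

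The 2 Vdr-/- pairs also parted in type I interferon-stimulated genes. Of 22 measured genes 6 were called higher, with a median of 1.10 log2, but the median was 1.77 in the pair without calcitriol and 0.55 in the pair with it. Ifit1, which binds foreign RNA, read 9.6 untreated, 724.0 with IFN-gamma, 268.7 with calcitriol and 746.5 with both. Ifit2 read 6.8, 1346.0, 260.4 and 1607.4 in the same order, and Bst2, which tethers budding virus, 148.5, 1404.0, 1136.0 and 1612.1.

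In these 3 genes the array labelled untreated was the lowest, and both levels with IFN-gamma were above the level with calcitriol alone. Ifit2 rose by 4.53 log2, Ifit1 by 3.51, Zbp1 by 3.10, Rsad2 by 1.98, Bst2 by 1.87 and Parp14 by 1.51. For Rsad2 the pairs gave 2.92 without calcitriol and 1.04 with it. The sensor gene Oas2 read 21 untreated and 241.7 with IFN-gamma, yet 407.9 with calcitriol and 318.4 with both (log2 change 1.58, adjusted p = 0.463), so its 2 arms had opposite signs. Its kin Oasl2 gave 38.9, 365.2, 445.8 and 502.4. The low levels fell on the array with the Gapdh 3'/5' ratio of 4.82 and the contrary Vdr signal, and the part of these in the result was not tested.

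**Figure D3:**
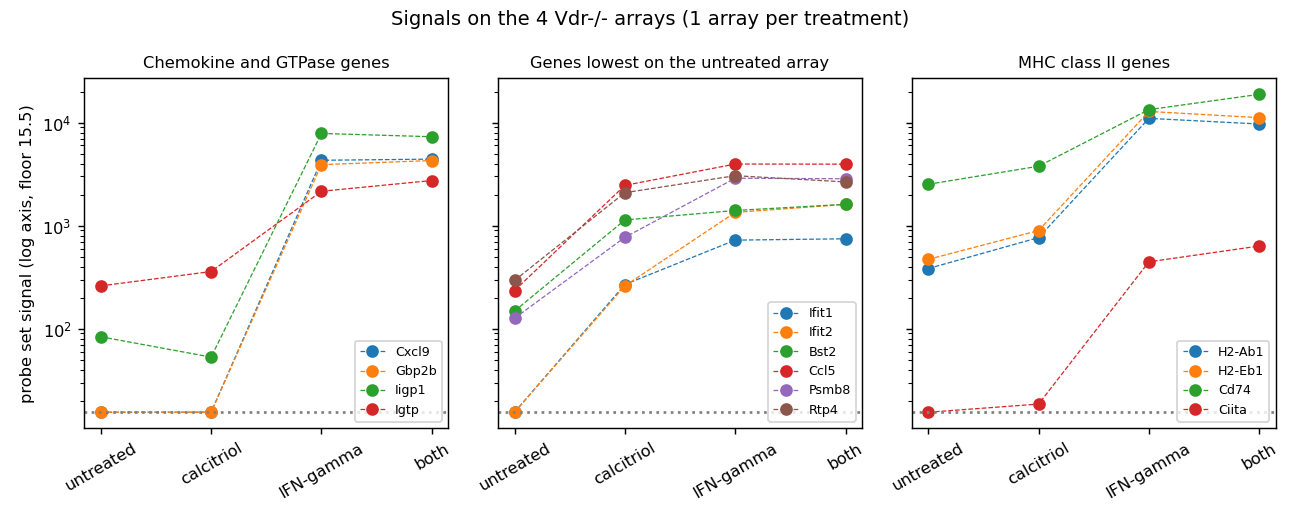
Probe set signal (log axis) on the 4 Vdr-/- arrays, 1 point per array and gene (dashed lines only join the points of a gene; the treatments have no order), for chemokine and GTPase genes, genes lowest on the untreated array and MHC class II genes. Cxcl9 and Gbp2b lie on the floor of 15.5 on both arrays without IFN-gamma, whereas Bst2 reads 148.5 untreated and 1136.0 with calcitriol before its levels of 1404.0 and 1612.1 with IFN-gamma.

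Across all called genes, the pair without calcitriol gave the larger rise for 73 of 105, with medians of 2.88 and 2.12 log2. That pair was also the wider over all 10437 named genes: 5790 had the larger absolute change in it, and the SD of the changes was 1.18 log2 against 0.97. Of all named genes 1518 rose at least 2-fold without calcitriol and 1291 with it, and 1986 and 1326 fell as far. All 105 rose at least 2-fold without calcitriol and 93 did with it; at least 2-fold in both pairs, called or not, was met by 330 named genes higher (3.16%) and 450 lower (4.31%). The 12 that fell short with calcitriol included Rtp4 (0.35 log2 in that pair), Bst2 (0.50), C1qa (0.65), Fcgr1 (0.66) and Ccl5 (0.68). Of the 48 that fell, 48 fell at least 2-fold without calcitriol and 46 with it, with medians of -2.21 and -2.04. Over all 10437 named genes the 2 pairs' changes correlated at r = 0.214, and at 0.458 over the 5264 genes whose highest signal reached 155.3.

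**Figure D4:**
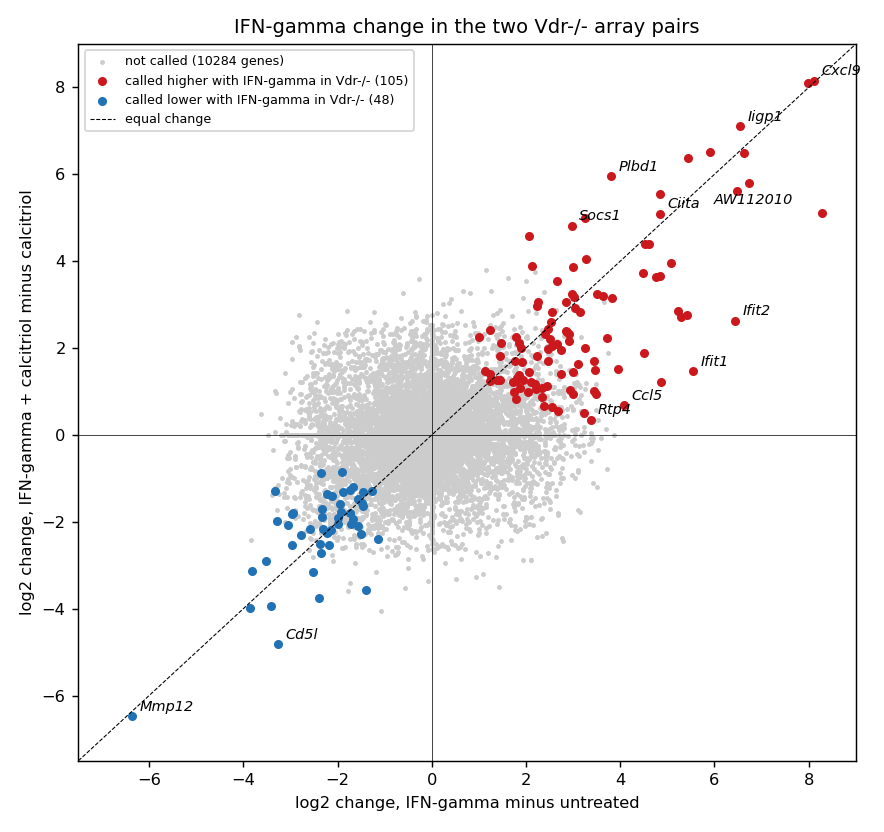
Log2 change with IFN-gamma in the Vdr-/- pair without calcitriol (x axis) and in the pair with it (y axis) for 10437 named genes, with the 105 called higher in red and the 48 called lower in blue and the dashed line at equal change. Cxcl9, Iigp1 and Mmp12 lie near the line, and Ifit1, Ifit2, Ccl5 and Rtp4 lie below it, with a larger change in the pair without calcitriol.

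Among the genes that fell with IFN-gamma were several that unstimulated macrophages express strongly. Mmp12, the macrophage elastase, read 2871.5 untreated and 4289.6 with calcitriol, against 35.1 with IFN-gamma and 48.4 with both. Its signal fell by 6.41 log2 (SE 0.34, limma adjusted p = 1.03e-11), or 85.2-fold. The arms gave -6.35 and -6.47. Of 10 measured metalloproteinase and inhibitor genes Mmp12 was the 1 called.

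Cd5l, a secreted scavenger receptor family protein of tissue macrophages, read 1263.2 and 3802.6 without IFN-gamma and 131.7 and 135.1 with it, and fell by 4.04 log2. Fcrls, an Fc receptor-like gene, fell by 3.92 log2 and Folr2, a folate receptor gene of resident macrophages, by 2.83. Mfge8, a bridge to apoptotic cells, read 4786.1 and 3400.0 against 573.5 and 804.9 and fell by 2.57 log2. The C-type lectin gene Clec4d fell by 2.54. Both arrays with IFN-gamma had Emp1 at the floor, which is at least an 11.2-fold fall from 218.8 and 136.5, and the cell cycle inhibitor gene Cdkn1c fell by 3.21 log2.

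Of 23 measured sterol and lipid genes 4 were called lower and 0 higher, with a median of -0.77 log2. Fabp4, a fatty acid carrier, read 1747.5 and 1032.1 without IFN-gamma and 225.3 and 179.0 with it. The carrier fell by 2.74 log2 (SE 0.33, limma adjusted p = 1.01e-05). Plin2, which coats lipid droplets, fell by 2.12 log2, the lipase inhibitor gene Angptl4 by 3.07 and the fatty acid and lipoprotein receptor gene Cd36 by 1.52. The 4 called genes serve fatty acid handling, and 7 of the 23 had an unadjusted p under 0.05 (limma). Of sterol synthesis genes 0 were called, but Fdps, Hmgcs1, Cyp51 and Idi1 were lower in both pairs, with log2 changes of -1.61, -1.19, -0.99 and -0.77. The arms of Sqle (-1.04), Fdft1 (-0.97) and Lss (0.12) had opposite signs. A fall limited to fatty acid genes was thus not shown. The cholesterol exporter gene Abca1 had a log2 change of -0.83 (adjusted p = 0.599).

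Both called genes of 8 measured iron genes fell. Slc40a1, which encodes the iron exporter ferroportin, read 1243.6 and 743.8 against 127.2 and 188.3 (log2 change -2.64, SE 0.39, limma adjusted p = 0.00015), and Tfrc, the receptor that brings iron in, read 472.7 and 312.8 against 60.9 and 88.8 (-2.39). Exporter and importer thus fell together, with no overlap of groups in either.

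Of 9 measured alternative activation genes 2 fell and 1 rose. Mrc1, the mannose receptor, fell by 1.94 log2 and Cd36 is the other, while the crosslinking enzyme gene Tgm2 rose from 846.9 to 4917.6 and from 679.1 to 4116.0, by 2.57 log2. Of 12 measured lysosomal hydrolase genes 1 rose, 2 fell and 9 were not called. Ctsc, which activates serine proteases, rose by 2.98 log2, and Ctsd and Ctsl fell, with log2 changes of -1.88 and -1.54. The stress genes Dusp1 and Fos fell, with log2 changes of -2.37 and -1.83, as 2 of 14 immediate early and heat shock genes.

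No member was called in the glycolysis and hypoxia, cell cycle, cell death, vitamin D receptor axis and housekeeping lists, with 16, 23, 10, 15 and 7 measured genes and medians of 0.66, 0.14, 0.61, 0.11 and 0.13 log2 (limma; 4, 4, 2, 2 and 0 of them had an unadjusted p under 0.05). In the vitamin D axis, Cyp24a1, which breaks calcitriol down and is a classical receptor target, read 45.4, 21, 35.7 and 3.1 on the untreated, IFN-gamma, calcitriol and combined arrays (log2 change -1.16, adjusted p = 0.875), and the 2 arms of its second probe set had opposite signs. Cyp27b1, which makes calcitriol and which IFN-gamma can induce in human macrophages, read 21.9, 19.8, 12.1 and 2.5 and so was at or near the floor throughout (-0.07, adjusted p = 1.0). Vdr itself had a log2 change of -0.15, the mean of -0.99 without calcitriol and 0.69 with it. Its second probe set gave -0.71, from -2.03 and 0.61. The pair without calcitriol uses the untreated array with the contrary Vdr signal.

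Of the marker lists, 1 of 15 macrophage markers was called, the complement gene C1qa, higher by 1.60 log2. Of 8 measured stromal markers 0 were called (limma, 2 at an unadjusted p under 0.05), yet their median was -0.99 log2, and the sum over 10 fell on the same arrays as the genes above, from 1112.7 and 545.7 without IFN-gamma to 433.5 and 282.9 with it. Its part in the called falls was not tested. None of the measured neutrophil, dendritic cell, lymphocyte and NK cell, or erythroid and mast cell markers was called of 7, 5, 6 and 5 genes (limma, 1, 2, 0 and 1 at an unadjusted p under 0.05).

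The IFN-gamma effect was then compared with that in wild-type cells, to see whether loss of the receptor changed it. In the same fit wild-type cells gave 140 named genes higher and 75 lower, and the test of the difference called 0 of 10437 genes (0%; limma, 368 at an unadjusted p under 0.05, and 635 of 18058 probe sets). When the genotype labels of the 2 untreated arrays were swapped, 8 probe sets were called higher and 101 lower in Vdr-/- cells. The wild-type calcitriol array also stood apart, with a Gapdh 3'/5' ratio of 7.67 and r of 0.741 to 0.781 with the other arrays. A simulation with known changes recovered 12% of differences of 2 log2, 34% of 3 log2 and 66% of 4 log2 for this contrast, with 9 false calls. Its noise was independent and normal at the fitted spread, without truncated RNA, exchanged labels, a floor or variation between cultures. These shares hold for that model only. The effect of genotype and that of the mice and cultures used cannot be told apart.

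Of the 105 genes that rose in Vdr-/- cells, 104 also had a positive wild-type change, 102 in both wild-type pairs, and 80 were called higher there. Over all 10437 named genes, 5998 had the same sign in both genotypes and 3219 in both wild-type pairs. The medians were 2.48 log2 in Vdr-/- and 2.53 in wild-type cells. Of the 48 that fell, 46 had a negative wild-type change and 30 were called lower, with medians of -2.14 and -1.85. Since the genes were chosen by their Vdr-/- change, a somewhat larger size there is built into these medians. The spread was shared by both genotypes, so a Vdr-/- call also favoured genes whose 2 wild-type pairs gave similar changes. The wild-type calls used the same SE. The counts for both wild-type pairs and for wild-type calls are thus partly built in as well, and by how much was not tested.

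The 3 called genes with a wild-type change of the other sign were Folr2, Ccl6 and Gtpbp2, and with Cyp4f18 they are named here after their values were seen. Cyp4f18, an enzyme that inactivates leukotriene B4, rose in Vdr-/- cells from 13.1 to 584.4 and from 73.7 to 536.4. In wild-type cells the signal went from 173.6 to 469.4 without calcitriol and from 230.9 to 139.0 under it, so the difference was 3.70 log2 (SE 0.81, limma adjusted p = 0.996). Ccl6 in wild-type cells read 1673.7 untreated, 1321.2 with IFN-gamma, 3117.3 with calcitriol and 9237.2 with both, where Vdr-/- cells showed a fall in both arms (difference -2.42 log2, SE 0.52, adjusted p = 0.996). Folr2 in wild-type cells read 99.2 to 198.6 on all 4 arrays, while the Vdr-/- fall started from 242.9 and 1214.1 (difference -2.89, SE 0.68, adjusted p = 0.996).

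Of genes central to the response, Cxcl9, Irf1, Ciita and Cd74 are set side by side in both genotypes. The log2 change was 8.14 in Vdr-/- and 7.81 in wild-type cells for Cxcl9, 3.38 and 4.01 for Irf1, 4.97 and 3.91 for Ciita, and 2.36 and 2.11 for Cd74. The SE of these differences ran from 0.44 (Irf1) to 0.84 (Ciita), larger than or near the differences themselves for all but Irf1 and Ciita, which differed by -0.64 and 1.06 log2 with an adjusted p of 0.996 each. Other response genes, picked after their values were seen, differed more and in both directions. The difference was 2.14 log2 for Cxcl10 (SE 0.87) and 1.43 for Gbp8 (0.72), but -2.05 for Irgm2 (0.75) and -1.11 for Gbp2 (0.50). None of them was called (limma adjusted p = 0.996 each).

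**Figure D5:**
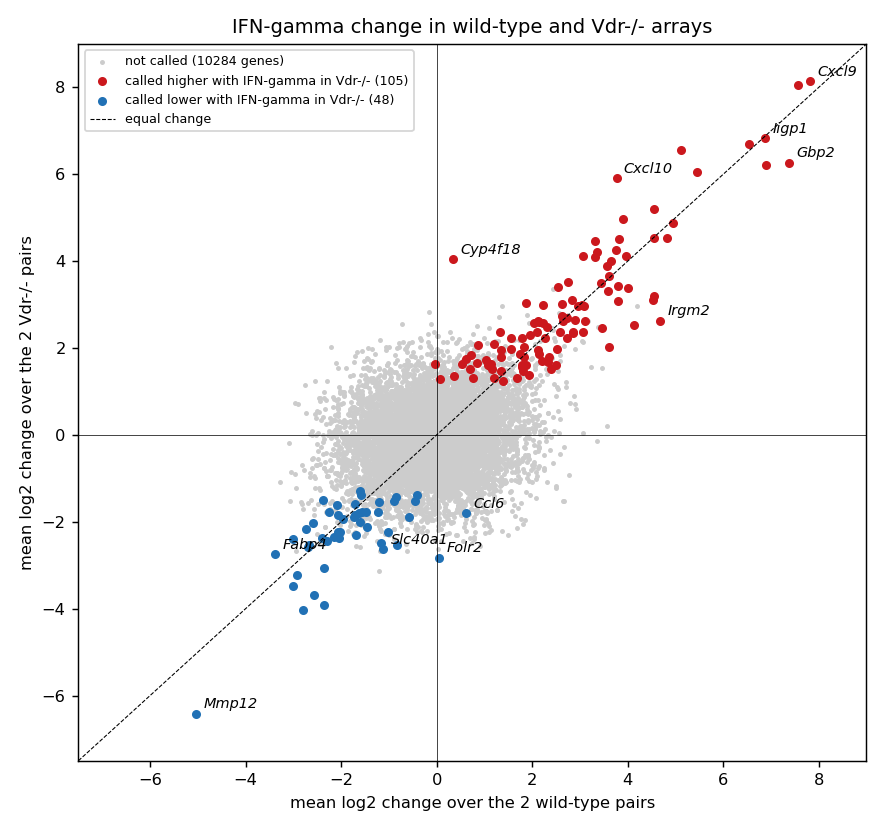
Mean log2 change with IFN-gamma over the 2 wild-type pairs (x axis) and the 2 Vdr-/- pairs (y axis) for 10437 named genes, coloured by the call in Vdr-/- cells, with the dashed line at equal change. Most called genes lie along the line, and Cyp4f18 (4.05 and 0.35 log2), Folr2 (-2.83 and 0.06) and Ccl6 (-1.81 and 0.61) lie apart, none of them past the test of the difference.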

How the data were processed

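The 8 arrays hold 1 sample for each combination of genotype, IFN-gamma and calcitriol. Per the deposited table, values are linear intensity signals of 22690 probe sets that the authors had scaled to a common 2% trimmed mean, 150.07 to 150.08 by the values; the sources used here name no software and hold no detection calls. Without 64 controls 22626 remained, and floor, filter and log2 were applied as described above. GEO's platform annotation named 1 gene for 20380 probe sets, several for 691 and none for 1555. Limma 3.58.1 in R 4.3.3 fitted a mean, an IFN-gamma and a calcitriol effect per genotype, with an intensity trend, two-sided, and adjustment over all tested probe sets. The text names the called genes with the 15 largest rises and the 12 largest falls, a fixed set of 12 genes (1 of them is not reported here), and members of described lists; other genes were chosen after their values were seen. Members and lists were chosen with earlier results of these data known. In a simulation of 18058 probe sets, 36% of changes of 2 log2 and 88% of 4 log2 were recovered for IFN-gamma in Vdr-/-, with 6 false calls. The simulated noise was independent and normal at the fitted spread, without a floor or outlying arrays, so these shares hold for that model only. The labels give no shared replicate numbers beyond 1 per group; arrays were paired by treatment. Alternatives were quantile normalization, other filters and floors, no trend, other blocks, fewer arrays, exchanged untreated labels and probe set means. Python 3.11.15, pandas 2.3.3 and matplotlib 3.10.9 made tables and figures.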

Additional observations from a re-analysis of the deposited data

How the results depend on the processing

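The calls depended on how the spread was estimated. Of 1456 values of the 91 called genes named here, 591 stayed past the threshold under the 16 alternatives. None of these genes reversed, but all 105 genes called higher and all 48 called lower had the same sign in both Vdr-/- pairs. Alternatives that only dropped a pair, the block, the trend or the filter therefore could not reverse a sign. Against 153 probe sets higher and 61 lower, limma called 1 and 1 with no signal filter, 87 and 33 with a stricter one, 99 higher with the floor at the 10th percentile, and 5 and 1 with no intensity trend. Without the calcitriol block it called 75 and 21, with a shared calcitriol effect 76 and 23, and with the untreated labels exchanged 98 lower. With no block and also without the array labelled Vdr-/- untreated it called 21 and 2. From the Vdr-/- arrays only it called 0 and 0 with the block (1274 at an unadjusted p under 0.05) and 3 and 0 without it. Leaving out either Vdr-/- pair gave 0 to 0 in both directions (371 and 763 unadjusted), with 1 residual degree of freedom, and so did a fit with no block and without the 2 arrays of highest 3'/5' signal ratio (Vdr-/- untreated and wild-type calcitriol), chosen after seeing the data (1480 unadjusted). Those 2 arrays were the highest by the Gapdh and actin controls. By the transferrin receptor control the Vdr-/- array with IFN-gamma was the highest, at 20.9, while its actin ratio was 1.53 and its Tfrc signal was low (60.9). The difference between genotypes was 0 except with the untreated labels exchanged, where 8 were higher and 101 lower in Vdr-/-, and the cause was not tested. Limma's call of 0 differences stands beside 635 at an unadjusted p under 0.05. Pairing by replicate number was not possible because each group has 1 array. The only pairing is by treatment, through the calcitriol block. The number of arrays and signals near the floor limit the precision.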

Other observations

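Some called genes outside the lists, named after their values were seen, are given here as values. The annexin genes Anxa1, Anxa3 and Anxa2, which encode calcium-dependent membrane-binding proteins, had log2 changes of -2.44, -2.16 and -2.01 (limma adjusted p = 5.48e-05, 0.00106 and 0.00122). Anxa1 read 5910.0 and 5727.5 without IFN-gamma and 1149.1 and 1004.2 with it. The calcium-binding genes S100a4 and S100a6 had log2 changes of -2.02 and -1.60, and the galectin gene Lgals1 of -1.77. Igf1, a growth factor that macrophages secrete, read 3605.6 and 5059.0 against 948.4 and 1472.5, and Glul, which makes glutamine, 824.4 and 503.1 against 175.9 and 105.3. In these genes, chosen for their fall, both arrays with IFN-gamma were below both without it, as in 19.8% of all named genes.

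On the rising side, Slamf8, a myeloid surface receptor gene, read 182.9 and 165.5 without IFN-gamma and 1757.9 and 2736.3 with it, a rise of 3.66 log2 (limma adjusted p = 1.21e-07), beside 3.61 in wild-type cells. Wars, the tryptophan tRNA synthetase gene, rose by 3.11 log2, and Samhd1, which depletes nucleotides and so limits viruses, by 2.36. Il12rb1, a chain of the IL-12 receptor, was at the floor on both arrays without IFN-gamma and read 191.2 and 142.5 with it, at least a 10.6-fold rise. Among 85 further probe sets of 56 called genes, 4 had the opposite sign, those of Stat3, Zyx, Rtp4 and Tgs1.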
